A study of Drosophila melanogaster with 12 samples.

Results

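The comparison described here was the gut of wild-type (wt) adult *Drosophila melanogaster* females against the carcass, which is the rest of the fly without gut and head. Its members were the 6 arrays labelled as wt gut (3 arrays) and wt carcass (3 arrays), of 12 arrays in all, and the other 6 arrays came from gut and carcass of flies carrying the *nub1* mutation in the POU transcription factor gene *nubbin* in a *nub1 b1 pr1* stock. The 3 wt arrays of each tissue held RNA from independent pools of 20 females aged 7 to 12 days, kept untreated in vials together with males. The sample labels give the wt strain as OregonR and w1118, whereas the design text names OregonR alone, so which stock each pool came from could not be told. The labels do not say whether Malpighian tubules, crop or tracheal branches were removed from the guts, and they do not name the organs left in the carcass.

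RNA was hybridised to Affymetrix Drosophila Genome 2.0 arrays, on which a probe set is a group of short probes for 1 transcript. Of 18769 probe sets that are not array controls, 9964 reached a signal of 10 on all 3 arrays of at least 1 tissue and were tested. These represented 8232 named genes, each counted through its brightest probe set. The gene lists below leave out members without a probe set assigned to them alone. Such probe sets existed for 14 of 22 antimicrobial peptide genes, 7 of 13 peptidoglycan recognition protein genes and 8 of 19 heat-shock genes. They existed for 6 of 10 brush border and smooth septate junction genes and 41 of 93 cytoplasmic ribosomal protein genes. The counts were 7 of 12 for progenitor and regeneration signal genes and 11 of 13 for enteroendocrine peptide genes. A gene was called higher in a tissue when limma gave an adjusted p below 0.05 and the difference was at least 2-fold. The log2 difference is always wt gut minus wt carcass on the scale log2(signal + 10), which understates the change of dim genes, and its error is the standard error (SE). Where all 3 arrays of the lower tissue were under 10, a lower bound of the fold against a signal of 10 is given beside the log2 difference, whose size then depends on the pseudocount. A gene under 10 in the lower tissue entered the test only through the higher one, so counts of called genes in lists with many such genes follow in part from this filter. An exact permutation test of 3 arrays against 3 cannot go below a two-sided p of 0.1, so single-gene statements rest on the fit across all probe sets.

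The adult fly gut is a tube of absorptive enterocytes, hormone-secreting enteroendocrine cells and dividing progenitor cells, wrapped in visceral muscle and supplied by nerves and tracheae. Enterocytes secrete proteases, glycosidases and lipases into a lumen lined by the chitin-containing peritrophic matrix, take up the products, and detoxify ingested compounds, while a stretch of the midgut acidifies its contents. The foregut and hindgut are lined with cuticle. The carcass of a female without head and gut holds the flight muscles, fat body, epidermis, oenocytes, hemocytes and ovaries. In bulk samples of this kind, fewer cells of a type and less RNA per cell cannot be told apart.

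Signals of 3959 probe sets (39.7% of those tested) differed between the tissues, 1773 (17.8%) being higher in gut and 2186 (21.9%) higher in carcass. Counted by gene, 1528 genes (18.6%) were higher in gut and 1929 (23.4%) higher in carcass. The gut differences were fewer but larger. At least 8-fold differences were seen for 538 probe sets higher in gut and for 53 higher in carcass, and at least 64-fold differences for 100 and 1. The carcass signal was under 10 on all 3 arrays for 522 of the genes higher in gut, whereas the gut signal was under 10 for 46 of the genes higher in carcass. Of the genes higher in gut, 771 have only a CG or CR number for a name, against 616 of those higher in carcass. Arrays of the 2 tissues did not overlap for 86.5% of the probe sets tested, which is the background for every statement below that arrays did not overlap.

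**Figure D1:**
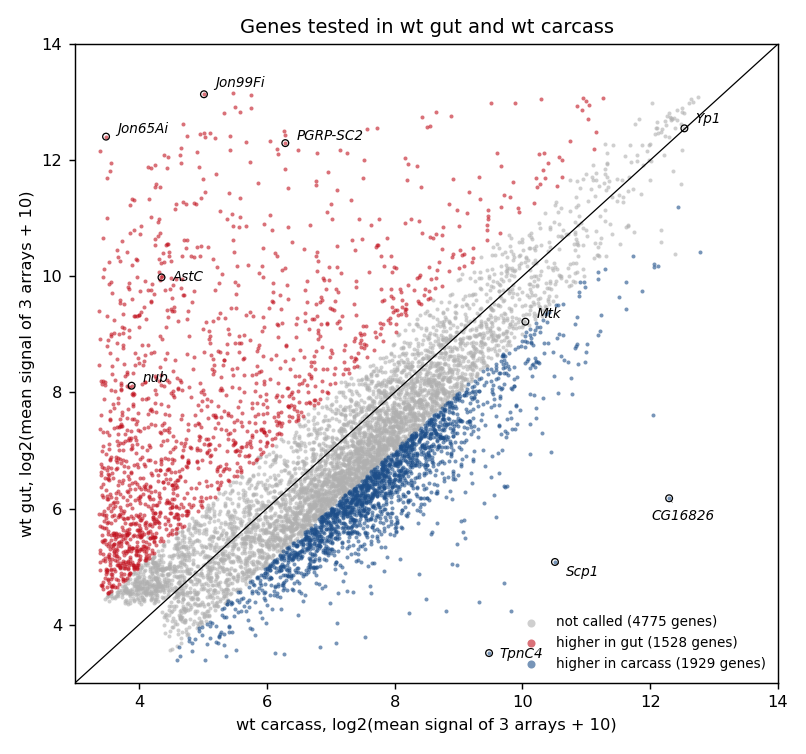
Log2(mean signal + 10) of each tested gene in wt carcass (horizontal) and wt gut (vertical), means of 3 arrays each, with genes called higher in gut in red, genes called higher in carcass in blue and genes not called in grey. The 1528 red points reach far from the line of equal signal, whereas most of the 1929 blue points lie close to it.

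How the calls split depended on the scaling of the arrays. The deposited values were scaled to a common trimmed mean, and the median signal of an array was 14.7 to 14.9 in gut and 7.81 to 11.1 in carcass. The median log2 difference over all probe sets tested was -0.32 (-0.38 over genes). Of the calls, 44.8% were higher in gut as deposited, 46.1% after quantile normalization, 74.3% after scaling each array to the median of expressed probe sets (which moved the median difference by 0.52) and 35.4% after scaling to the cytoplasmic ribosomal protein genes (which moved it by -0.20). In all 4 scalings, 1478 probe sets were higher in gut and 865 higher in carcass. Counts for a gene list under these other scalings are given below in the order quantile, median and ribosomal protein.

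Digestive proteases and *TpnC4*, the listed muscle gene with the largest difference, followed the tissue labels. Several other organ lists were mixed, and of 17 muscle genes 8 were higher in carcass and 2 in gut. On the gut arrays the mean log2 level of 27 digestive serine protease genes was 10.84 to 11.14, against 5.96 to 6.16 on the carcass arrays. In the other direction, *TpnC4*, a troponin C of flight muscle, gave 0.633, 2.11 and 1.48 on the gut arrays and 759, 715 and 635 on the carcass arrays, so that it was at least 70.1-fold higher in carcass. Both tissues also held transcripts typical of other organs. The 3 yolk protein genes, which the fat body and ovary express, were as strong on the gut arrays (mean log2 level 12.13 to 12.52) as on the carcass arrays (12.33 to 12.55). Transcripts of the eggshell varied among the gut arrays, with mean log2 levels of 4.39, 7.79 and 9.72 on gut arrays 1, 2 and 3 against 10.85 to 11.12 on the carcass arrays. By this mean, gut arrays 2 and 3 carried eggshell transcripts that gut array 1 largely lacked. Single genes differed, since *Cp36* and *Cp7Fc*, given below, were low on gut array 2 as well. Eggshell and germline results are given for gut array 1 alone too.

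**Figure D2:**
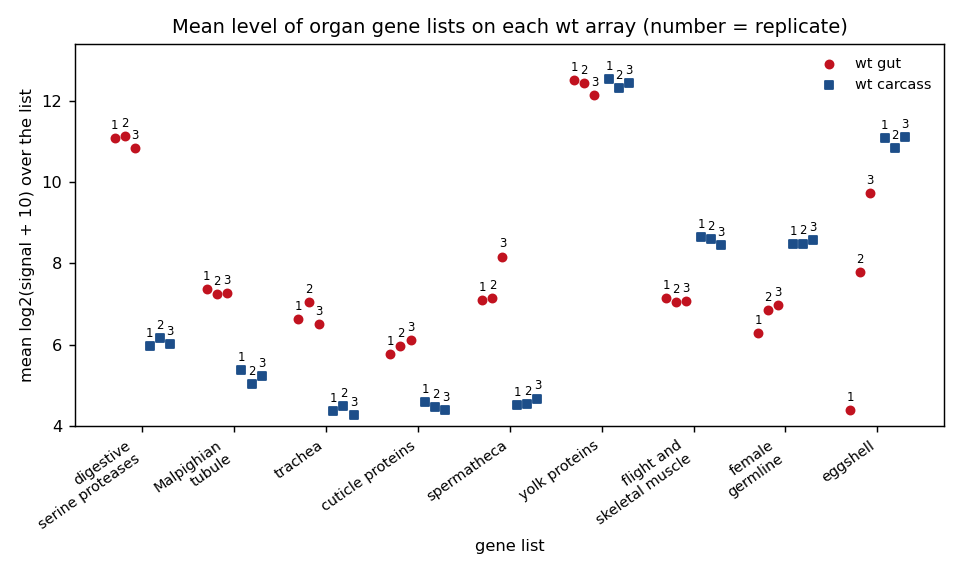
Mean log2(signal + 10) over the tested genes of 9 organ lists on each wt gut array (red circles) and wt carcass array (blue squares), numbered by replicate. Yolk protein genes overlap between the tissues, and the eggshell list spreads from 4.39 to 9.72 over the gut arrays.

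Digestive serine proteases were the leading family of the gut. Of the 27 genes of the Jonah (Jon), Try and Ser families, 25 were higher in gut, with a median log2 difference of 6.01, and 25 also in each of the other scalings. *Jon65Ai*, a chymotrypsin-like enzyme of the Jonah family, had the largest difference of all named genes. Its signals were 5786, 5460 and 4988 on the gut arrays and 1.55, 0.351 and 1.67 on the carcass arrays, a log2 difference of 8.92 ± 0.54 (adjusted p = 3.7e-08), and it was at least 540.1-fold higher in gut. *Jon99Fi* gave 9291, 9726 and 7927 on the gut arrays and 10.7, 16.6 and 39.8 on the carcass arrays (8.21 ± 0.66). *Jon65Aii* gave 6421, 7033 and 5511 on the gut arrays and 13.6, 15.5 and 18.1 on the carcass arrays (7.94 ± 0.16). *lambdaTry*, a trypsin, gave 4437, 4594 and 3950 on the gut arrays and 7.88, 16.9 and 7.98 on the carcass arrays (7.72 ± 0.49). Gut and carcass arrays were far apart for all 4 genes, and 10 genes of the list stayed under 10 on every carcass array.

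Some proteases had signal in the carcass as well. Signals above 100 on all 3 carcass arrays were found for 8 of them, namely *Jon25Bi*, *Jon25Bii*, *Jon65Aiii*, *Jon65Aiv*, *Jon74E*, *alphaTry*, *betaTry* and *epsilonTry*. *betaTry*, for example, gave 7942, 8718 and 5684 on the gut arrays and 1649, 2322 and 1843 on the carcass arrays, a log2 difference of 1.93 ± 0.23, the smallest among the 25. Probes of related genes such as *Jon25Bi* and *Jon25Bii*, or *alphaTry* and *betaTry*, may read each other, so their separate levels are uncertain. The same may hold for *Jon99Fi*, since *Jon99Fii* had no probe set of its own. Neither was tested. Exceptions were *Ser7*, higher in carcass (-1.05 ± 0.19) but not called under quantile or median scaling, and *Ser12*, near the floor in wt gut (11.4, 11.5 and 13.3) and not called. Genes with CG numbers among the largest differences, which the annotation used here gives no function, included *CG18628* (3757, 4035 and 4028 on the gut arrays and 0.451, 4.52 and 0.517 on the carcass arrays) and *CG8661* (3749, 3815 and 3163 on the gut arrays and 0.382, 1.15 and 3.56 on the carcass arrays). Their log2 differences were 8.40 ± 0.19 (at least 394-fold) and 8.26 ± 0.30 (at least 356-fold).

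Carbohydrate-digesting enzymes formed the next group. Of 12 maltase and amylase-related genes, 7 were under 10 on every carcass array, and 8 were higher in gut (8, 9 and 8 under the other scalings) and 1 in carcass (1 in each), with a median of 3.03. *Mal-A2*, an α-glucosidase, gave 526, 551 and 455 on the gut arrays and 1.52, 4.14 and 0.779 on the carcass arrays (5.43 ± 0.17, at least 50.9-fold). *Mal-A1* gave 777, 1090 and 869.8 on the gut arrays and 2.85, 18.5 and 18.3 on the carcass arrays (5.39 ± 0.32). *Mal-A3* and *Mal-A6* had log2 differences of 4.72 ± 0.28 (at least 27.9-fold) and 4.44 ± 0.29 (at least 35.3-fold). A relative ran the other way, since *Mal-A5* gave 101, 132 and 126 on the gut arrays and 484, 518 and 541 on the carcass arrays (-2.02 ± 0.20). Among the lysosomal-type α-mannosidase genes, *LManVI* gave 3740, 4199 and 3350 on the gut arrays and 2.97, 15.5 and 4.29 on the carcass arrays (7.81 ± 0.34). Of 7 lysozyme genes, whose products cleave the bacterial cell wall, 3 had a probe set of their own, and *LysB*, *LysC*, *LysD* and *LysE* did not. Of these 3, *LysX* (4.54 ± 0.45) and *LysS* (1.62 ± 0.22) were higher in gut, the former by 5.24 without carcass array 1, and *LysP* was higher in carcass. *LysP* gave 6.73, 6.85 and 13 on the gut arrays and 388, 485 and 440.5 on the carcass arrays, a log2 difference of -4.58 ± 0.52.

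Genes for the lining of the gut lumen were mostly higher in gut. Of 22 mucin and peritrophin genes on the array, 15 were tested, 10 were higher in gut (9, 10 and 9) and 4 higher in carcass (4 in each), with a median of 2.22. *Peritrophin-15a*, a chitin-binding protein of the peritrophic matrix, gave 5628, 6021 and 5194 on the gut arrays and 19.6, 27.3 and 16.3 on the carcass arrays (7.51 ± 0.29). *Peritrophin-15b* gave 716, 1052 and 918 on the gut arrays and 10.6, 0.908 and 1.07 on the carcass arrays (6.04 ± 0.25), and *Mur29B*, a mucin-related gene, had a difference of 5.86 ± 0.41. The 4 members higher in carcass were *Muc12Ea*, *Muc4B*, *Mur2B* and *Mur11Da*, and all 4 lie on the X chromosome. *Muc12Ea* gave 4.41, 56.9 and 44.3 on the gut arrays and 575, 549.8 and 491 on the carcass arrays (-3.87 ± 0.77). Its gut array 1 was the lowest, as for the mean of the eggshell list. The difference was -5.25 with gut array 1 alone and -3.18 without it. Of 8 chitinase genes tested, 3 were under 10 on every carcass array, and 6 were higher in gut (5, 6 and 5) and 1 in carcass (1 in each). *Cht9* gave 1450, 1160 and 1263 on the gut arrays and 27, 23 and 13 on the carcass arrays (5.41 ± 0.24), *Cht8* and *Cht4* had differences of 2.96 ± 0.33 and 2.95 ± 0.35, and *Cht2* was higher in carcass (-2.20 ± 0.17).

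Lipid uptake genes were higher in gut for part of their list. Of 12 lipase and sterol transport genes, 7 were higher in gut (7, 8 and 7) and none in carcass as deposited, while *Npc2h* was called higher in carcass under ribosomal protein scaling. *mag*, the gene of the gut lipase Magro, gave 4971, 4464 and 3882 on the gut arrays and 119, 170.1 and 137 on the carcass arrays (4.88 ± 0.34). *Npc2d*, which encodes a sterol-binding protein of the NPC2 family, gave 3613, 4069 and 3474 on the gut arrays and 10.1, 11.1 and 3.54 on the carcass arrays (7.70 ± 0.32). *Npc2e* had a difference of 6.29 ± 0.61 with gut signals of 2539, 1614 and 785, the most uneven of this group. Its relatives *Npc2a* (-0.68 ± 0.11) and *Npc2g* (-0.48 ± 0.30) were not called. *Acbp3*, a member of the acyl-CoA binding protein family, gave 4748, 4796 and 4081 on the gut arrays and 0.994, 0.372 and 0.153 on the carcass arrays and was at least 453-fold higher in gut. Of the 6 Acbp genes tested, 5 were higher in gut (4, 5 and 5). Of 4 lysosomal cathepsin genes, *CtsB* alone was called (1.31 ± 0.10), with none called after quantile normalization and 3 under median scaling. *cathD*, *CtsF* and *CtsL1* had differences of 0.74, 0.64 and -0.30, and that of *CtsL1* was 0.23 under median scaling.

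**Figure D3:**
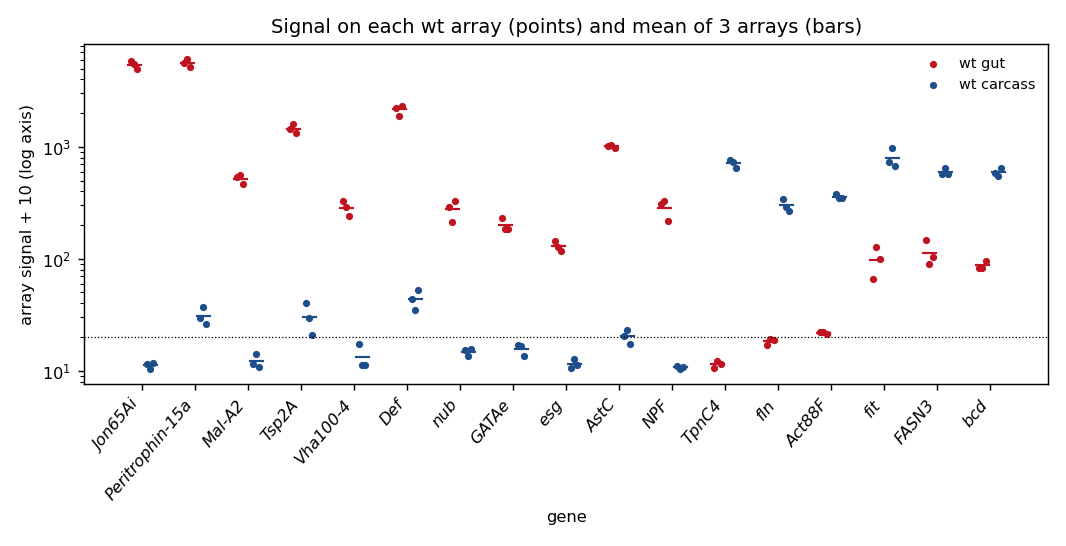
Signal + 10 on a log axis for 17 genes on each wt gut array (red) and wt carcass array (blue), with bars at the mean of 3 arrays and a dotted line at the signal minimum of 10. Gut and carcass points do not overlap for any of these genes.

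The membrane and junction genes of the gut epithelium were clearly separated. Of the 6 brush border and smooth septate junction genes, 5 were higher in gut (5, 6 and 5), with a median of 4.57. *Tsp2A*, *Ssk*, *mesh* and *hoka* encode the components of the smooth septate junction, which seals endodermal epithelia. *Tsp2A* gave 1419, 1587 and 1309 on the gut arrays and 30.3, 19.3 and 10.8 on the carcass arrays (5.63 ± 0.22), and *Ssk* gave 1898, 2092 and 1692 on the gut arrays and 62.4, 44.9 and 49.9 on the carcass arrays (4.94 ± 0.13). Differences of *mesh* and *hoka* were 4.57 ± 0.18 and 4.56 ± 0.21.

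Subunits of the vacuolar proton pump, which acidifies organelles and the gut lumen, differed in size of effect. Of 21 tested subunit genes, 14 were higher in gut (6, 16 and 12) and none in carcass under any of the 4 scalings. The a-subunit isoforms *Vha100-5* (1277, 1348 and 1137 on the gut arrays and 22.3, 28.1 and 27 on the carcass arrays, 5.14 ± 0.16) and *Vha100-4* (318, 279 and 228 on the gut arrays and 7.3, 1.24 and 1.14 on the carcass arrays, 4.45 ± 0.24, at least 27.3-fold) were nearly limited to the gut arrays. The other called subunits were strong in both tissues, and their log2 differences reached at most 1.76 ± 0.13 (*VhaAC45*). Further isoforms had small differences, namely *Vha100-1* (-0.42 ± 0.09), *Vha36-3* (-0.36 ± 0.15) and *Vha100-2* (0.95 ± 0.14), and *Vha100-2* was called higher in gut under median scaling. Of 24 metal handling genes, 8 were higher in gut (8, 15 and 8) and none in carcass, except *ZnT35C* (-0.82 ± 0.14) under ribosomal protein scaling. *MtnC* gave 2991, 2052 and 2197 on the gut arrays and 24.3, 13.7 and 21.3 on the carcass arrays (6.34 ± 0.36), and the other metallothioneins *MtnD* (5.39 ± 0.44) and *MtnB* (5.25 ± 0.46) followed, whereas *MtnA*, strong in both tissues, had a difference of 0.94 ± 0.11 and was called under median scaling alone. *Zip42C.2*, a zinc transporter, had a difference of 2.69 ± 0.17. Sugar, amino acid and peptide transporters were split. Of 12 tested, 3 were higher in gut as deposited (*NAAT1* 3.72 ± 0.16, *sbm* 2.20 ± 0.13 and *sut2* 1.97 ± 0.26, at least 4.92-fold) and 5 in carcass (4, 3 and 5), led by the peptide transporter *yin* (-2.28 ± 0.32). The median of this list was -0.37, near that of all genes (-0.38).

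Detoxification enzymes were higher in gut in many but not all members. Of 68 tested cytochrome P450 genes, 39 were higher in gut (35, 46 and 36) and 6 in carcass (8, 6 and 8), with a median of 1.21. *Cyp6a23* gave 1883, 2385 and 2335 on the gut arrays and 134, 121 and 83.2 on the carcass arrays (4.19 ± 0.19). *Cyp4ad1* gave 678, 695 and 616 on the gut arrays and 20.5, 16.7 and 14.3 on the carcass arrays (4.63 ± 0.24), and *Cyp4d1* and *Cyp6a21* had differences of 4.11 ± 0.23 and 4.11 ± 0.17. Of 31 UDP-glycosyltransferase genes, 17 were under 10 on every carcass array, and 19 were higher in gut (18, 25 and 18) and 2 in carcass (0, 0 and 2), with a median of 1.5. *Ugt37D1* gave 684, 724 and 671 on the gut arrays and 40.7, 40.4 and 26.9 on the carcass arrays (3.95 ± 0.16). *Ugt303A1*, *Ugt37A2* and *Ugt302E1* stayed under 10 on every carcass array and were at least 17.4-, 17.5- and 19.2-fold higher in gut. Of 31 glutathione S-transferase genes, 12 were higher in gut (11, 16 and 10) and 3 in carcass (2, 1 and 3), with a median of 0.57. *GstE3* gave 1420, 1543 and 1398 on the gut arrays and 125, 142 and 113 on the carcass arrays (3.42 ± 0.14), followed by *GstE5* (3.25 ± 0.19), *GstO3* (3.25 ± 0.12) and *GstD10* (3.17 ± 0.25). *GstE1*, in the same family as *GstE3*, was higher in carcass (-1.73 ± 0.18). Of 8 α-esterase genes, *alpha-Est5* was higher in gut (1.78 ± 0.14) and *alpha-Est2* higher in carcass (-1.16 ± 0.22), the latter in the deposited and ribosomal protein scalings alone. Quantile normalization gave 2 and median scaling 4 genes higher in gut.

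Part of the immune repertoire was strong in wt gut without infection. Of 12 antimicrobial peptide genes tested, 3 were under 10 on every carcass array, and 8 were higher in gut and 1 in carcass in all 4 scalings, with a median of 1.42. *Def*, which encodes Defensin, gave 2230, 1890 and 2329 on the gut arrays and 34, 25.2 and 42.7 on the carcass arrays (5.63 ± 0.39). *Listericin* gave 2157, 1565 and 1588 on the gut arrays and 62, 55.6 and 55.4 on the carcass arrays (4.70 ± 0.26). *Drs*, which encodes the antifungal peptide Drosomycin, gave 6321, 6473 and 5582 on the gut arrays and 247, 437 and 413 on the carcass arrays (4.07 ± 0.32). *AttD*, an Attacin gene, varied among the guts, with 225, 91.9 and 307 on the gut arrays and 11.6, 7.87 and 15.9 on the carcass arrays (3.19 ± 0.58). The exception was *Drsl4*, a Drosomycin-like gene, which was higher in carcass (-2.38 ± 0.16). *Mtk* and *DptB*, which encode Metchnikowin and a Diptericin, overlapped between the tissues and were not called (-0.87 ± 0.52 and 0.69 ± 0.64). Of 7 peptidoglycan recognition protein genes, 3 were higher in gut (3, 4 and 3). *PGRP-SC2*, the gene of an amidase that degrades peptidoglycan, gave 5135, 5307 and 4583 on the gut arrays and 73.8, 79.5 and 51.4 on the carcass arrays (6.02 ± 0.33), and *PGRP-LB*, another amidase gene, had a difference of 3.39 ± 0.19. *PGRP-LA* had one of 2.10 ± 0.14. Of 15 serpin genes, which encode protease inhibitors, 4 were under 10 on every carcass array. Of the 15, 8 were higher in gut (6, 9 and 8) and none in carcass, and 4 of these calls recurred in *nub1*. *Spn55B* led the list (909.7, 979.9 and 854 on the gut arrays and 44.7, 34.7 and 31.2 on the carcass arrays, 4.31 ± 0.19). The heat-shock genes *Hsp27*, *Hsp26* and *Hsp60A*, 3 of 5 tested, were higher in carcass in all 4 scalings, with differences of -2.38 ± 0.30, -2.25 ± 0.37 and -1.57 ± 0.17. *TotC*, the 1 Turandot stress gene tested, was higher in carcass as deposited (-1.67 ± 0.68), but not under quantile or median scaling, nor without gut array 1 (-1.39), gut array 2 (-1.61) or carcass array 2 (-1.05).

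Most tested transcription factors known from the midgut were higher in gut, as were some markers of its minor cell types. Of 12 tested midgut transcription factor genes, 7 were under 10 on every carcass array, and 9 were higher in gut (8, 9 and 9) and 1 in carcass (0, 0 and 1), with a median of 2.47. *nub* gave 282, 203 and 317 on the gut arrays and 5.38, 3.42 and 5.49 on the carcass arrays (4.21 ± 0.19, at least 26.3-fold). *GATAe*, an endodermal GATA factor gene, gave 223, 176 and 175 on the gut arrays and 7.04, 6.63 and 3.61 on the carcass arrays (3.67 ± 0.17, at least 19-fold). *Ptx1* and *exex*, homeobox genes, had differences of 3.44 ± 0.20 and 3.27 ± 0.20 (at least 11.9-fold). GATA factor genes were split, since *GATAe* and *pnr* (1.43 ± 0.18, at least 2.99-fold) were higher in gut and *srp*, a GATA factor of fat body and hemocytes, was higher in carcass (-1.27 ± 0.26) in the deposited and ribosomal protein scalings. *cad* and *Hnf4*, also on the list, were not called and had differences of -0.74 ± 0.11 and -0.32 ± 0.11, the latter turning to 0.20 under median scaling. Of 6 tested genes of progenitors and regeneration signals, 2 were higher in gut (2, 3 and 2) and none in carcass. Both were under 10 on every carcass array, so they entered the test through gut alone. *esg*, which marks progenitor cells, gave 134, 117 and 108 on the gut arrays and 0.562, 2.73 and 1.29 on the carcass arrays (3.49 ± 0.20, at least 11.9-fold). *Sox100B* was also higher in gut (1.99 ± 0.14, at least 3.28-fold), whereas *Sox21a* (0.69 ± 0.25) and the ligand gene *spi* (0.45 ± 0.13) were not called. Of 9 enteroendocrine peptide genes, 5 were higher in gut (5, 7 and 5) and none in carcass, except *Nplp2* (-0.55 ± 0.16) under quantile normalization. *AstC*, the Allatostatin C gene, gave 1011, 1027 and 964 on the gut arrays and 10.6, 13.2 and 7.48 on the carcass arrays (5.64 ± 0.23). *NPF*, the neuropeptide F gene, gave 299, 316 and 205 on the gut arrays and 0.98, 0.392 and 0.861 on the carcass arrays (4.70 ± 0.19, at least 26.8-fold), and *CCHa2* and *CCHa1* had differences of 2.34 ± 0.18 and 2.32 ± 0.16 (at least 5.47-fold).

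**Figure D4:**
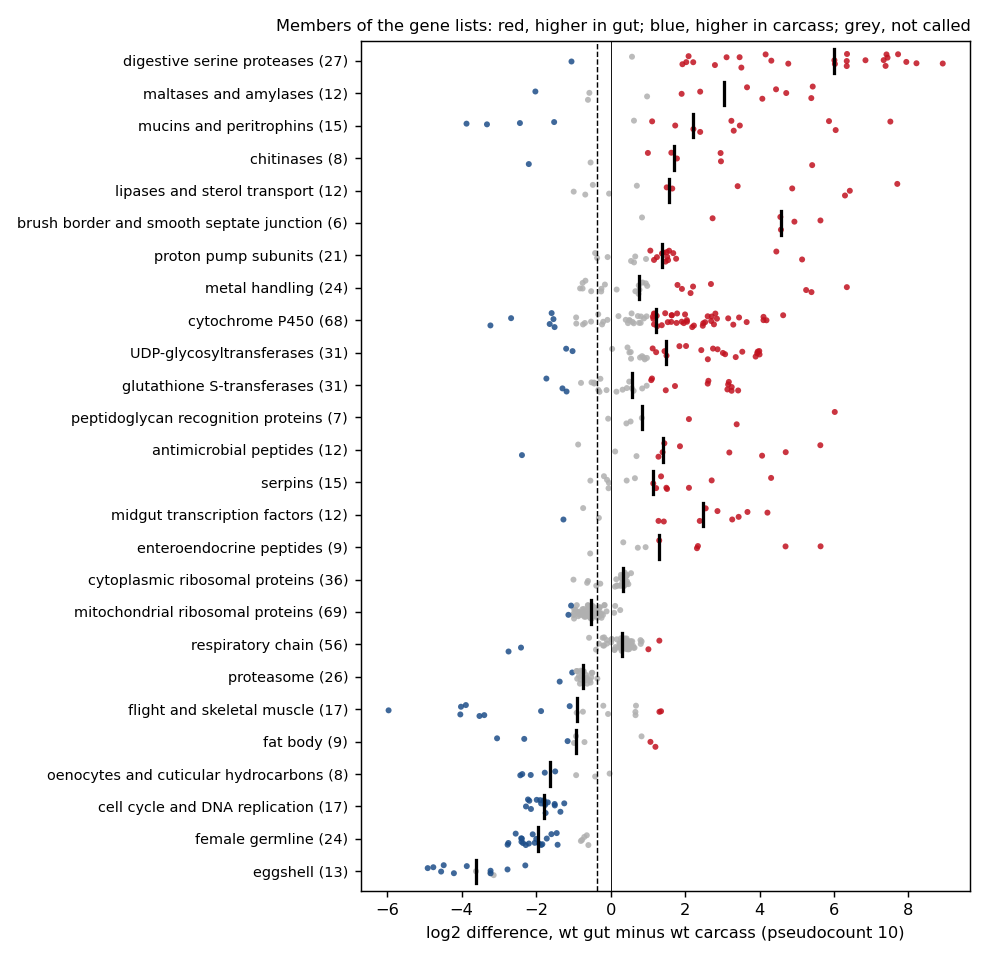
Log2 difference (wt gut minus wt carcass) of every tested member of 26 gene lists, with the number tested in brackets, black bars at the list medians and a dashed line at the median of all genes (-0.38). List medians run from 6.01 for digestive serine proteases to -3.62 for eggshell genes.

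Transcripts of organs attached to the gut, or not part of it, moved with the gut genes. Of 11 Malpighian tubule genes, 10 were higher in gut (9, 10 and 10), with a median of 2.54. The organic anion transporter gene *Oatp58Dc* gave 539, 449 and 520.2 on the gut arrays and 41, 29.7 and 26.1 on the carcass arrays (3.61 ± 0.16), *Irk2*, a potassium channel gene, gave 446, 403 and 363 on the gut arrays and 47.7, 32.4 and 32.1 on the carcass arrays (3.14 ± 0.17), and *Oatp58Da* and *NaPi-T* had differences of 2.97 ± 0.14 and 2.81 ± 0.14. Mean log2 levels of this list were 7.24 to 7.36 in gut and 5.02 to 5.36 in carcass, and the share of tubule RNA in the differences of transporters, proton pump and detoxification genes was not tested. The 4 tracheal genes were higher in gut (3, 4 and 3). *Gasp*, a chitin-binding protein gene, gave 344, 474 and 330.1 on the gut arrays and 12.4, 26.5 and 18.3 on the carcass arrays (3.77 ± 0.26), *verm* and *serp*, chitin deacetylase genes, had differences of 2.49 ± 0.25 (at least 6.72-fold) and 2.14 ± 0.25, and *btl* one of 1.03 ± 0.19 (at least 1.86-fold). Of 43 tested cuticle protein genes, of 100 on the array, 18 were under 10 on every carcass array, and 24 were higher in gut (21, 29 and 22) and 1 in carcass (1, 0 and 1), with a median of 1.23. *TwdlM* gave 194, 239 and 294 on the gut arrays and 6.9, 6.16 and 2.44 on the carcass arrays (4.05 ± 0.23, at least 23.9-fold), *Cpr51A* gave 202, 329.8 and 349.7 on the gut arrays and 8.44, 12.9 and 6.19 on the carcass arrays (3.96 ± 0.24), and *TwdlF* and *Cpr65Ea* had differences of 3.79 ± 0.26 (at least 13.9-fold) and 3.65 ± 0.29 (at least 15.3-fold). Of 24 Osiris genes on the array, 8 were tested, all of them under 10 on every carcass array, so that their calls as higher in gut were largely fixed by the filter.

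Other organ markers were mixed. *Send1*, a spermathecal endopeptidase gene, gave 429, 477 and 508 on the gut arrays and 1.49, 0.282 and 2.68 on the carcass arrays and was at least 47-fold higher in gut. *Send2* gave 139, 118 and 939 on the gut arrays and 1.05, 0.62 and 3.19 on the carcass arrays, so its gut array 3 stood far above the others, and the log2 difference was 4.50 with it and 3.58 without it. Both were near the floor on the carcass arrays, and whether female tract tissue was part of the dissected guts is not given in the sources used here. Of the 2 tested Hox genes, *Antp* was higher in gut (1.33 ± 0.15) and *Dfd* was not called (0.98 ± 0.17). Of 7 neuronal genes, 2 were higher in gut (*elav* 2.003 ± 0.20, and *futsch* 1.03 ± 0.26, at least 1.71-fold in the deposited and median scalings) and 2 higher in carcass (*Snap25* -1.79 ± 0.23, at least 4.33-fold and *Gad1* -1.55 ± 0.20). The arrestin gene *Arr1*, an eye marker, reached 17.9, 16.4 and 33.9 in gut and was called there (1.04 ± 0.28, at least 2.15-fold) in the deposited and median scalings, and *Arr2* was not called (0.85 ± 0.32). Of 10 male accessory gland genes on the array, 1 was tested, and this gene, *Acp95EF*, overlapped between the tissues (0.09 ± 0.22). Of 18 tested odorant-binding protein genes, 7 were higher in gut, among them *Obp56d* (4281, 4126 and 3843 on the gut arrays and 162, 191 and 167 on the carcass arrays, 4.48 ± 0.10) and *Obp56a* (4.73 ± 0.16), and 5 higher in carcass (4, 4 and 6), led by *Obp19c* (-4.43 ± 1.05, but -3.82 without gut array 2 and -5.60 without gut array 3).

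Some muscle genes set the carcass apart. Of 17 tested, 8 were higher in carcass (9, 7 and 9) and 2 in gut (1, 5 and 2), with a median of -0.91. Flight muscle genes led the list. *fln*, which encodes the flight muscle protein Flightin, gave 6.98, 9.33 and 8.96 on the gut arrays and 329.9, 282 and 257 on the carcass arrays (-4.02 ± 0.15, at least 28.8-fold). *Act88F*, the flight muscle actin, gave 12.1, 12.2 and 11.3 on the gut arrays and 370.4, 340.0 and 337 on the carcass arrays (-4.04 ± 0.29), and *Act79B*, another muscle actin, gave 20.1, 15.7 and 32.7 on the gut arrays and 531, 476 and 398 on the carcass arrays (-3.89 ± 0.31). In contrast, *Tm2*, a tropomyosin gene, was higher in gut (679, 601 and 558 on the gut arrays and 238, 232 and 229 on the carcass arrays, 1.35 ± 0.16), and *Mlc2*, the myosin regulatory light chain gene, overlapped between the tissues (-0.07 ± 0.16). *Scp1*, a sarcoplasmic calcium-binding protein gene outside the list, gave 11.2, 18 and 42.2 on the gut arrays and 1423, 1497 and 1420 on the carcass arrays (-5.53 ± 0.31). As deposited, the largest carcass difference of a named gene was that of *CG16826*, with 9.76, 151 and 26.8 on the gut arrays and 5185, 5092 and 4773 on the carcass arrays (-6.68 ± 1.33). Its difference was -7.99 with gut array 1 alone, -6.03 without gut array 1 and -7.54 without gut array 2, and without gut array 3 (-6.48) the chorion genes *Cp36* (-7.18) and *Cp38* (-6.68) exceeded it.

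Fat body, oenocyte and hemocyte genes were mixed, and 23.4% of all genes were higher in carcass and 18.6% in gut. Of 9 fat body genes, 3 were higher in carcass (4, 2 and 5) and 2 in gut (2, 3 and 0), near these shares. *fit*, a female-biased fat body gene, gave 56.1, 118 and 89 on the gut arrays and 725, 959 and 662 on the carcass arrays (-3.05 ± 0.23). *apolpp*, the apolipophorin gene, was higher in carcass (-1.16 ± 0.31) except under median scaling, and *NLaz*, a lipocalin gene, was higher in gut (1.203 ± 0.14) except under ribosomal protein scaling. *Lsp2* was called higher in carcass (-2.32 ± 0.61) although its arrays overlapped (3.31, 10.2 and 26.7 on the gut arrays and 188, 177 and 23.3 on the carcass arrays), and its difference was -3.16 without carcass array 3. Of 8 oenocyte genes, 5 were higher in carcass (6, 5 and 6), with a median of -1.63. *FASN3*, a fatty acid synthase gene, gave 137, 80.04 and 92.7 on the gut arrays and 563, 638 and 558 on the carcass arrays (-2.43 ± 0.20), and *FASN2* (-2.37 ± 0.20), *Fad2*, a desaturase gene of female pheromone synthesis (-2.15 ± 0.25), and the elongase gene *eloF* (-1.77 ± 0.24) followed. Of 9 hemocyte genes, *Hml* (-1.28 ± 0.18), *NimC1* (-1.19 ± 0.16) and *PPO1* (-1.08 ± 0.22) were higher in carcass, none of which was called under median scaling.

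Most of the listed ovarian and cell division genes were higher in carcass. Of 24 female germline genes, 19 were higher in carcass and none in gut, with a median of -1.96, and 17 were so under median scaling. *bcd*, the anterior determinant that is stored in the egg, gave 72.6, 73.2 and 85.9 on the gut arrays and 568, 542 and 642 on the carcass arrays (-2.77 ± 0.16). *swa*, *exu* and *png* had differences of -2.75 ± 0.32, -2.55 ± 0.40 and -2.40 ± 0.29. All 17 tested cell cycle and DNA replication genes were higher in carcass (14 under median scaling), with a median of -1.78, led by *cid*, the centromeric histone gene (-2.27 ± 0.29), and *Mcm5*, a replicative helicase subunit gene (104, 96.9 and 129 on the gut arrays and 524, 525 and 589.6 on the carcass arrays, -2.22 ± 0.24). *Orc1* (-2.18 ± 0.14) and *twe* (-2.14 ± 0.25) were of like size. Of 13 eggshell genes, 10 were higher in carcass (11, 6 and 11). *Cp36*, a chorion gene, gave 10.9, 35.3 and 3400 on the gut arrays and 4487, 4036 and 4840 on the carcass arrays (-4.91 ± 1.92), and *Cp7Fc*, another chorion gene, gave 7.5, 1.04 and 328 on the gut arrays and 979, 907 and 1431 on the carcass arrays (-4.76 ± 1.42). With gut array 1 as the only gut array, all 13 were called with a median of -7.31, whereas without gut array 1 the count was 5 with a median of -2.20. *Cp36* itself had a difference of -7.18 without gut array 3, and lost its call when any 1 of the other 5 wt arrays was left out (-4.98 to -3.50). Without gut array 2 the count was 9 and without gut array 3 it was 13. The germline count was 20 with a median of -2.61 for gut array 1 alone, and 19 with a median of -1.61 without it, so the sizes in both lists depended on the gut array. The difference of *Cp7Fc* was -5.97 with gut array 1 alone, and it was -3.83 without gut array 2 and -6.30 without gut array 3.

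Few genes of the listed general cell functions were called in the deposited scaling. Of 36 cytoplasmic ribosomal protein genes none was called in the deposited scaling, with a median of 0.34, and *RpL27* (0.55 ± 0.10) was called higher in gut under median scaling. Quantile normalization called 2 of them higher in carcass and ribosomal protein scaling 1. The latter scaling sets the mean level of 34 of these genes equal on all arrays, so its low count for this list was largely fixed in advance. Of 69 mitochondrial ribosomal protein genes 2 were higher in carcass (*mRpS18B* -1.13 ± 0.17 and *mRpS23* -1.06 ± 0.15), neither under quantile or median scaling, while 12 were higher in carcass under ribosomal protein scaling, and the median was -0.53. Of 56 respiratory chain genes 2 were higher in gut and 2 in carcass, and under median scaling 14 were higher in gut. Those higher in carcass were *COX7AL2* (165, 139 and 148 on the gut arrays and 834, 893 and 799 on the carcass arrays, -2.41 ± 0.18) and *ND-B8* (-2.74 ± 0.19, at least 6.5-fold). Of 26 proteasome genes, *Rpn2* (-1.37 ± 0.11) and *Prosalpha4* (-1.03 ± 0.09) were higher in carcass except under median scaling, with 10 genes called under quantile and 9 under ribosomal protein scaling. Of 10 glycolysis genes, *Pfk* was higher in carcass (-1.02 ± 0.09) in the deposited and ribosomal protein scalings. Quantile normalization called 2 other glycolysis genes higher in carcass, and median scaling called 1 higher in gut.

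Genes were also grouped by the letters that open their symbols, without chosen lists. Such a group is not always a gene family, as with mei, mus and lncRNA, and the Cyp group kept *Cyp1* and *Cyp40*. Of 97 groups with at least 5 tested genes, 18 had at least 50% of their genes higher in gut. In 15 groups at least 50% were higher in carcass, and 12 had no gene called. Under median scaling the counts of 18 and 15 became 27 and 6, and under ribosomal protein scaling 15 and 22. The 18 include the Osiris genes, whose calls were largely fixed by the filter, and the 15 include mei (5 of 5) and mus (4 of 5). Families led by the gut included Jon (13 of 13), Acbp (5 of 6), Alp, the alkaline phosphatases (8 of 11), Oatp (5 of 7) and Cht (6 of 8). Families led by the carcass included Nup, the nucleoporins (18 of 20, but 6 under median scaling), Mcm (5 of 5, and 5 under median scaling), dgt (6 of 6, but 3) and CCT, the cytosolic chaperonin (7 of 8, but 1).

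Genes higher in gut also lay side by side in the genome. Of the 1521 genes higher in gut with a known place, 39.3% were next to another such gene, against 20.2% of all 8194 tested genes. Neighbours were taken in the order of all protein-coding genes, and a neighbour that was not tested did not count. For the 1916 genes higher in carcass, 35.02% were next to another of their kind, against 29.7% of all. There were 32 runs of at least 4 adjoining genes higher in gut and 16 higher in carcass. The longest gut run held 16 CG genes on 3R, from *CG11878* to *CG10550*. Other runs held 8 trypsin genes from *lambdaTry* to *betaTry* on 2R, the genes from *CG10477* to *Jon65Ai* on 3L (7 genes), *Mal-A1* to *Mal-A4* on 2R and *LManIII* to *LManVI* on 2L. The trypsin genes *gammaTry* and *deltaTry* had no probe set of their own and were not counted. These runs are made of related genes in part, so neighbours are not independent and may share probe signal. The X chromosome held 16.1% of all tested genes, 12.5% of the genes higher in gut and 20.4% of those higher in carcass.

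The tissue difference was measured a second time in *nub1* flies, which share no sample with the wt arrays. *nub* itself, whose probe set was not assigned to any of its transcripts here, had a mean signal of 457 in *nub1* gut and 5.18 in *nub1* carcass. Of the 3959 wt calls, 2824 were also called in the same direction in *nub1*, 3 in the opposite direction, and 3865 had the same sign. The difference between the genotypes passed the interaction test for 632 probe sets (6.34% of those tested), 468 of which were more gut-biased in wt and 164 less so. Probe sets entered this test only through their signal on the wt arrays. Genes detected in *nub1* alone were thus left out, and the split in direction may follow in part from this filter. Digestive serine proteases kept their direction, 26 being called in the same way in *nub1*, though *Jon65Aii* had a difference of 7.94 in wt and 2.97 in *nub1* (difference 4.98 ± 0.23, adjusted p = 4.3e-07). The mean log2 level of this list was 6.21 to 6.94 on the *nub1* carcass arrays, above the wt carcass arrays. Of the 25 cuticle genes called in wt, 6 were called in the same way in *nub1*, where the list median was 0.13, and *TwdlM* had differences of 4.05 in wt and -0.20 in *nub1* (adjusted p = 1.2e-05). None of the 8 Osiris genes, which had entered only through wt gut, was called in *nub1*, and of the 4 tracheal genes 1 was. Among carcass genes, *TpnC4* had differences of -5.96 in wt and -5.82 in *nub1*, and the interaction test gave an adjusted p of 0.87.

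**Figure D5:**
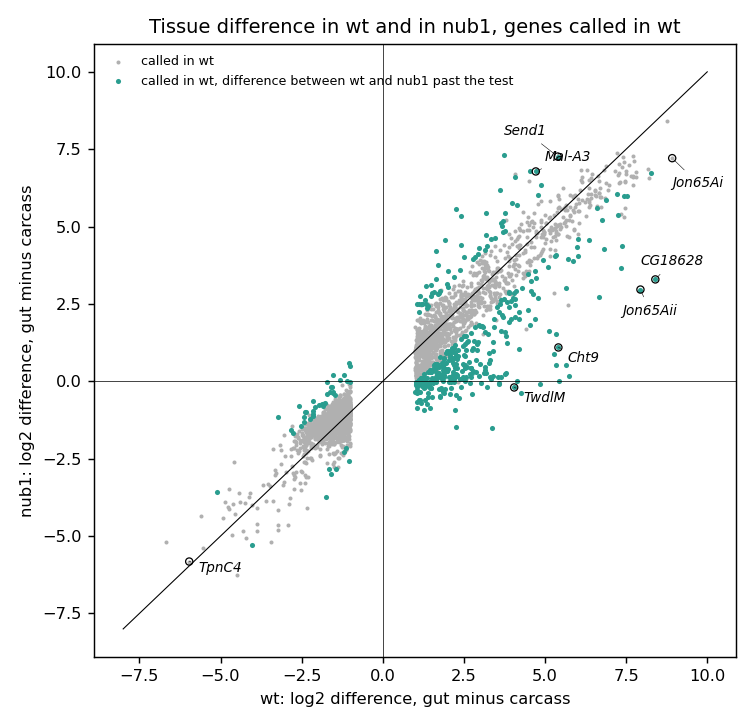
Log2 difference (gut minus carcass) in wt (horizontal) and in *nub1* (vertical) for genes called in wt, with genes whose difference between the genotypes passed the interaction test in green and a line of equal difference. *TpnC4* lies near the line, and *Cht9*, *TwdlM* and *Jon65Aii* lie far below it.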

How the data were processed

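Total RNA from wt and *nub1* gut and carcass, 3 pools per group, was hybridised to Affymetrix Drosophila Genome 2.0 arrays. The deposited intensity values are MAS5 signals that the authors made in Affymetrix Expression Console (versions not given in the sources used here), scaled so that the mean after trimming 2% at each end was about 100. CEL files were not analysed here, and precision is limited by having 3 arrays per group. The 183 array controls were left out of 18952 probe sets. Signals plus a pseudocount of 10 were log2 transformed and fitted in limma 3.58.1 (R 4.3.3; lmFit, eBayes with trend) with all 12 arrays in 4 groups (8 residual and 3.66 prior degrees of freedom) and Benjamini-Hochberg adjustment over the 9964 probe sets tested. Tables were made in Python 3.11.15 with numpy 2.4.6 and pandas 2.3.3. Names came from the platform table, updated by gene ID through RefSeq Release 6, which was used for names and gene order only. Of the probe sets, 13647 had 1 gene, 402 several and 4720 none. The brightest probe set stood for a gene. Among 418 genes with several tested probe sets, 3 (*Hr39*, *hts* and *scrib*) had calls in opposite directions. The gene lists and the comparison were chosen with earlier results of these data known. The text names genes from among the 15 largest differences in each direction, up to 4 leading members of each list and organ markers. Not all of the largest differences are shown. Other genes, such as the exceptions within a list, were chosen after their values were seen. The cyclophilin genes *Cyp1* and *Cyp40* were taken out of the P450 list, and scaling to ribosomal protein genes was added, after the data were seen. The fit was tested on simulated data. A planned search of promoters for a GATA motif was not run, since promoter sequences were not used here. Replicates of a tissue are separate pools of flies.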

Additional observations from a re-analysis of the deposited data

Results flagged for a closer look

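For the genes below the tissue difference of wt flies differed from that of *nub1* flies by the limma interaction test (adjusted p below 0.05, and a difference of at least 2-fold). Values are the wt difference minus the *nub1* difference on the log2 scale, so a positive value means that gut minus carcass was higher in wt. Groups of 3 arrays are too small for a test of single deviating arrays. Most of these genes were named for the size of their wt difference, which bears on the sign of the values. No explanation was tested.

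Among genes of digestion, transport, detoxification and gut hormones, positive values were found for *Jon65Aii* (4.98), *Cht9* (4.32), *LysX* (2.72), *Ugt37D1* (1.94), *Cyp4ad1* (1.83), *GstO3* (1.73), *NAAT1* (1.63), *Peritrophin-15a* (1.52), *Ugt303A1* (1.32), *Cyp6a21* (1.197), *NPF* (1.13) and *Oatp58Dc* (1.11). Negative values were found for *Ser12* (-6.38), *Amyrel* (-4.60), *Mal-A3* (-2.07) and *GstD10* (-1.57). *Ser12* and *Amyrel* were not called in wt. *Ser12* was near the floor in wt gut, and whether it encodes a digestive enzyme was not tested. The CG-numbered genes *CG18628*, *CG8661* and *CG4461* had values of 5.11, 1.52 and -1.53.

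Among immune genes, the values were 2.90 for *AttD*, 2.68 for *Listericin*, 2.62 for *Def*, 2.27 for *Spn43Aa*, 1.98 for *Drs*, 1.96 for *PGRP-SC2* and 1.42 for *Spn47C*. All 7 were named as leading members of their lists by the wt difference, so their shared positive sign follows in part from that choice. Of all 632 probe sets past the interaction test, 468 had a positive value.

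Cuticle and tracheal genes had some of the larger values, with 4.25 for *TwdlM*, 3.52 for *TwdlF*, 3.52 for *Cpr65Ea*, 2.16 for *Gasp*, 1.98 for *serp* and 1.92 for *verm*. The odorant-binding protein genes *Obp83g*, *Obp56d* and *Obp56a* had values of 3.08, 2.18 and 1.41.

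Genes of the *E(spl)* complex, which are targets of Notch signalling, had values of 2.44 (*E(spl)m5-HLH*), 2.33 (*E(spl)m4-BFM*), 2.11 (*E(spl)m2-BFM*) and 1.32 (*E(spl)malpha-BFM*). The neuronal gene *elav* had 1.61 and the Hox gene *Dfd*, not called in wt, 1.09.

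Among carcass and other organ genes, the values were 1.32 for *vkg* (not called in wt) and 1.27 for *fln*, and -1.87 for *Send1*, -1.38 for *FASN2*, -1.29 for *NLaz*, -1.28 for *FASN3*, -1.18 for *Fad2* and -1.08 for *bcd*.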

How the results depend on the processing

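The 3959 calls ranged from 2760 with a pseudocount of 32 to 4764 with a pseudocount of 1. Median scaling left 865 probe sets higher in carcass, and a pseudocount of 32 left 385 for the wt against *nub1* difference. Leaving out 1 wt array at a time gave 3866 to 4123 calls (1736 to 1826 higher in gut, 2105 to 2297 higher in carcass), and 539 to 631 for the difference between genotypes. With gut array 1 as the only gut array the calls were 4269 (1942 and 2327), under the assumption that a lone array varies like the other groups. The settings were compared for a set of 205 genes, made of the largest differences, leading list members and some genes chosen later. Some exceptions within lists, such as *Ser7* and *Mal-A5*, and the Bearded family genes were not in this set. No called gene of the set changed direction in any setting run. In the set, 168 genes were called and 139 of these in every setting that kept them. Median scaling ended the calls of 15 genes of the set and added 15, and a pseudocount of 32 ended 14. Single arrays decided some calls. *Cp36* (-4.91) and *Cp38* (-4.55) lost theirs without any 1 of gut arrays 1 and 2 and the 3 carcass arrays (-4.98 to -3.50 and -4.63 to -2.89), *Cp18* without gut array 1 (-2.76), and *TotC* without gut array 1, gut array 2 or carcass array 2 (-1.39, -1.61 and -1.05). Genes near the 2-fold limit lost theirs by size, namely *PPO1* (-0.99 without carcass array 2, -0.94 without gut array 3), *Arr1* (0.91 and 0.81 without the same arrays), *futsch* and *btl* (0.90 to 0.99 without carcass array 2, carcass array 3 or gut array 2), *Pfk* (-0.99 without carcass array 1) and *Prosalpha4* (-0.96 without gut array 1). Same-numbered gut and carcass arrays had correlations of deviations of 0.0409, -0.0367 and 0.176. The sources used here do not state whether they came from the same flies, and with 3 arrays per group these values cannot decide it. A fit with the replicate block gave 3962 calls (1773 and 2189) and 613 differences between genotypes, and changed the call of no gene of the set. The methods' t-test gave 4725 calls after Benjamini-Hochberg adjustment. The planned promoter motif search was not run. Signals under 10 limit the precision, since the size of a log2 difference against them depends on the pseudocount.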

Other observations

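A run of 7 adjoining genes on 3R that were higher in wt gut held 6 genes of the *E(spl)* complex and *Kaz-m1*. All 7 were called in all 4 scalings, with log2 differences that included those of *E(spl)m5-HLH* (2.69 ± 0.24, at least 5.98-fold), *E(spl)malpha-BFM* (2.62 ± 0.22), *E(spl)m2-BFM* (2.18 ± 0.27), *E(spl)mbeta-HLH* (1.42 ± 0.24) and *E(spl)m3-HLH* (1.37 ± 0.12). *Kaz-m1*, a Kazal-type protease inhibitor gene, gave 2519, 2246 and 1863 in gut and 28.3, 36.2 and 20.6 in carcass (5.86 ± 0.30).

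A separate run on 3L held *BobA*, *Tom*, *Brd* and *Ocho*, genes of the Bearded family, which modulate Notch signalling. *Tom* gave 670.0, 288 and 396 in gut and 3.87, 2.93 and 1.03 in carcass (5.11 ± 0.61, at least 42.4-fold), and *BobA*, *Brd* and *Ocho* had differences of 4.43 ± 0.70 (at least 31.1-fold), 3.40 ± 0.36 and 3.39 ± 0.25 (at least 10.7-fold). Gut array 1 had the highest signal of the 3 gut arrays for all 11 of these genes. These genes were chosen after their values were seen.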
